A study of Arabidopsis thaliana with 20 samples.

Results

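The JAZ (jasmonate ZIM-domain) repressors JAZ1 to JAZ10 of Arabidopsis thaliana were followed in rosettes exposed to ozone. The members are the 10 genes with these names, taken by locus identifier from the 33602 genes of the deposited count tables, and all 10 had enough counts to be tested. They were taken by name, with no threshold on their values. JAZ proteins hold back jasmonate responses. In unstimulated cells they bind MYC2 and related transcription factors and, through the adaptor NINJA, recruit the co-repressor TOPLESS (TPL). The conjugate of jasmonic acid with isoleucine joins a JAZ protein to the F-box receptor COI1, the JAZ protein is degraded, and MYC2 is set free. Most JAZ genes are themselves targets of MYC2, so that new repressor is made while the response runs. Ozone passes through the stomata and breaks down into reactive oxygen species outside the cells, and jasmonate is known to limit the spread of ozone lesions in this species.

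RNA was sequenced from whole rosettes of plants aged 3 weeks, with a pool of 5 rosettes in each of 20 libraries. The 6 groups were the double mutant wrky25 wrky33 with ozone (3 libraries) and without (3), the single mutant wrky75 with ozone (3) and without (3), and the wild type Col-0 with ozone (4) and without (4). Ozone was given at 350 ppb for 2 h, and control plants of each genotype had none. WRKY proteins are transcription factors of defence and stress responses, and the comparisons ask how ozone changes transcripts and whether that differs in plants labelled as lacking these factors. Neither the alleles nor the sites of the lesions are known from the labels.

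Total counts ran from 20486137 to 20771667 per library, and between 22214 and 22703 genes had a count. The mutated genes kept their transcripts. WRKY25 stood at 176 to 223 CPM (a gene's count relative to all counts of its library, after TMM scaling of library sizes) in ozone libraries labelled wrky25 wrky33 and at 104 to 144 CPM in Col-0 ozone libraries, and WRKY33 at 224 to 426 CPM in ozone libraries labelled wrky25 wrky33 and at 320.5 to 729.9 CPM in Col-0 ozone libraries. WRKY75 stood at 28.0 to 72.8 CPM in ozone libraries labelled wrky75 and at 48.0 to 129 CPM in Col-0 ozone libraries. In control libraries WRKY25 stood at 3.14 to 5.55 CPM in wrky25 wrky33 and 8.38 to 16.1 CPM in Col-0, and WRKY33 at 12.6 to 14.2 CPM in wrky25 wrky33 and 14.8 to 23.8 CPM in Col-0, both lower in the mutant without overlap. WRKY75 in control libraries stood at 0.302 to 0.431 CPM in wrky75 and 0.273 to 0.734 CPM in Col-0. WRKY25 was thus lower than in Col-0 without ozone and higher with it, the counts do not settle the genotypes, and the mutants are named by their labels throughout. The 4 leaf markers summed to 14289 to 27797 CPM in ozone libraries and 35112 to 48036 CPM in control libraries, and all 4 were lower under ozone in each genotype. The 4 root markers summed to 16.6 to 79.9 CPM, the 4 flower markers to 0.320 to 2.96 CPM and the 3 seed markers to at most 0.0522 CPM, with the seed storage genes CRU3 and SESA3 at 0 in every library. Nearly all of the root sum was PYK10, and COBL9, RHD6 and EXPA7 had group means of at most 0.0367 CPM. Whether the lower leaf markers have a part in the JAZ values was not tested, and in whole rosettes fewer cells of a type and less RNA per cell cannot be told apart. On the second principal component, with 2.51% of the variance, Col-0 ozone library 4 stood at −17.5, apart from 8.90 to 19.8 in the other Col-0 ozone libraries. Col-0 control libraries 1 to 4 were spread out, at 13.7, −9.83, 2.42 and −23.6, with number 4 lowest.

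Of the 10 genes, 7 lie on chromosome 1 (JAZ1, JAZ2, JAZ4, JAZ5, JAZ6, JAZ8 and JAZ9), and at the deposited bounds none of the 10 overlaps another locus. JAZ5 (AT1G17380) ends 20.198 kb from LOX3 and JAZ6 (AT1G72450) 32.197 kb from LOX4, lipoxygenase genes of jasmonate synthesis. MYC factors bind the G-box and WRKY factors the W-box, and both motifs were searched on either strand in the 300 bases before the annotated start (RefSeq, TAIR10.1) of 9 of the 10 genes, all but JAZ1. The G-box was spelled CACGTG and the W-box TTGACC or TTGACT, and no matches overlapped in the 9 windows. A G-box was in the windows of JAZ2, JAZ3, JAZ7 and JAZ8, 4 of the 9, against 7.2% of 26711 windows of protein-coding genes. A W-box was in those of JAZ4 and JAZ8, 2 of the 9, against 32.3% of all windows. Both were in the window of JAZ8, against 2.3% of all windows, and neither in those of JAZ5, JAZ6, JAZ9 and JAZ10. The windows with a G-box are shown, and their genes differed widely under ozone. So did the genes whose windows held neither motif, from 0.55 for JAZ9 to 4.09 for JAZ5 (log2 fold change in Col-0). The window of JAZ6 overlapped the locus AT1G09307 and that of JAZ10 the locus AT5G02045. Capitals mark the motifs, with the W-box of JAZ8 written as GGTCAA because it lies on the other strand.
JAZ2, chr1:28150447-28150746, minus strand, G-box 66 bases before the start: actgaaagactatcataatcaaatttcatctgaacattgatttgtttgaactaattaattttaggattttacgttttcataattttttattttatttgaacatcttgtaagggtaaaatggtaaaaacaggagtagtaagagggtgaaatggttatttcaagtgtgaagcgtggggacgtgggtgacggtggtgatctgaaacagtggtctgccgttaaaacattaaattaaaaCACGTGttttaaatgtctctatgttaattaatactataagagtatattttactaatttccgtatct
JAZ3, chr3:6119407-6119706, plus strand, G-boxes 140 and 82 bases before the start: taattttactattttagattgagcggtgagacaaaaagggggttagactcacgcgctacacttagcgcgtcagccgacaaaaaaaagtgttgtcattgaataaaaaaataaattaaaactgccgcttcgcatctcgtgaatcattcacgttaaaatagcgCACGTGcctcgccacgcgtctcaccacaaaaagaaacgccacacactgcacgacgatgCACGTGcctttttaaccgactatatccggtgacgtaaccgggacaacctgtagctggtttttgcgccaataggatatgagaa
JAZ7, chr2:14572730-14573029, plus strand, G-box 34 bases before the start: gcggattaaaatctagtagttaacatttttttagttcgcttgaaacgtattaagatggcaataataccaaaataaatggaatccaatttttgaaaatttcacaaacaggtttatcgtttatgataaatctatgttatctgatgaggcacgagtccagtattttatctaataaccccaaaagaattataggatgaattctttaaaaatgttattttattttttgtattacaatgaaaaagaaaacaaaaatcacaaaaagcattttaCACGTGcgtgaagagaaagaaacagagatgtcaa
JAZ8, chr1:10596052-10596351, plus strand, W-box 82 and G-box 10 bases before the start: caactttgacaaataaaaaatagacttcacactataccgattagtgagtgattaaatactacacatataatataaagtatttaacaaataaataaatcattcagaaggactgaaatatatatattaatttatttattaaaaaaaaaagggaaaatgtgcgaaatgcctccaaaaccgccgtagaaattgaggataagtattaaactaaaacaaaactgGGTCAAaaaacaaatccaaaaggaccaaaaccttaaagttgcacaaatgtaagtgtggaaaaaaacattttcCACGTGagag
A match describes these letters only and is not a bound site.

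The make-up of the JAZ transcripts differed between ozone and control rosettes. Levels between genes were compared as CPM per kb of exon, in each group as mean ± SD over its libraries. In Col-0 ozone rosettes JAZ1 was the most abundant at 253 ± 29.6 CPM per kb (SD, n = 4), followed by JAZ6 at 147 ± 22.0 and JAZ9 at 127 ± 18.4, and the libraries of JAZ6 and JAZ9 overlapped. In Col-0 control rosettes JAZ9 led at 86.7 ± 34.2 CPM per kb (SD, n = 4), ahead of JAZ6 at 28.5 ± 5.68 and JAZ2 at 16.2 ± 1.79, and JAZ1 came after JAZ3 at 7.79 ± 2.59. JAZ1 thus made up 39.7 ± 1.84% of the summed JAZ level under ozone and 5.19 ± 1.17% in control, and JAZ9 made up 19.9 ± 2.21% under ozone and 55.5 ± 5.998% in control (SD, n = 4 each). Lower in the order of Col-0 ozone rosettes came JAZ2 at 37.8 ± 7.15 and JAZ5 at 34.2 ± 8.35 CPM per kb, whose libraries overlapped, then JAZ10 at 16.8 ± 5.76, JAZ8 at 14.8 ± 4.596 and JAZ3 at 6.83 ± 1.63, with JAZ10 overlapping JAZ8 and JAZ8 overlapping JAZ3. With the median transcript length in place of the exon length, JAZ5 at 42.2 stood before JAZ2 at 39.1 CPM per kb. JAZ7 at 1.15 ± 0.409 and JAZ4 at 0.622 ± 0.233 CPM per kb were the lowest under ozone and overlapped. In Col-0 control rosettes JAZ3 stood at 8.74 ± 2.01, overlapping JAZ1, JAZ5 at 1.99 ± 0.673 overlapped JAZ10 at 1.42 ± 0.385, and JAZ8, JAZ4 and JAZ7, at 0.498 ± 0.283, 0.489 ± 0.131 and 0.243 ± 0.206 CPM per kb, overlapped in turn.

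The summed level of the 10 genes was 428.8 ± 53.4 CPM per kb in wrky25 wrky33 ozone and 143 ± 49.9 in wrky25 wrky33 control rosettes (SD, n = 3 each). It was 698.5 ± 81.5 in wrky75 ozone and 212 ± 137 in wrky75 control rosettes (SD, n = 3 each), and 639 ± 85.5 in Col-0 ozone and 152.5 ± 45.2 in Col-0 control rosettes (SD, n = 4 each). In every genotype the ozone libraries lay above the control libraries. The same change of leader was seen in the mutants. JAZ1 made up 36.4 ± 4.12% of the sum in wrky25 wrky33 ozone and 4.49 ± 0.82% in wrky25 wrky33 control rosettes, and 35.9 ± 3.96% in wrky75 ozone and 6.98 ± 3.23% in wrky75 control rosettes (SD, n = 3 each). JAZ9 fell to 25.2 ± 3.27% in wrky25 wrky33 ozone, against 53.8 ± 6.24% in wrky25 wrky33 control rosettes, and to 22.7 ± 3.38% in wrky75 ozone, against 56.2 ± 5.47% in wrky75 control rosettes. These shares are descriptions, with no test.

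**Figure D1:**
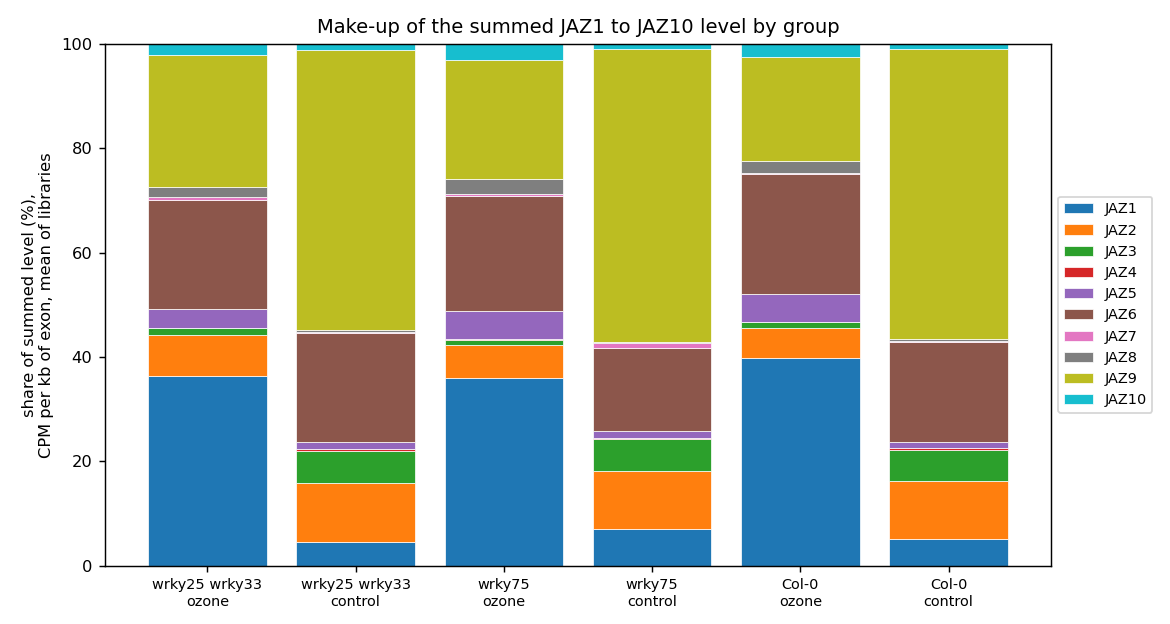
Stacked bars give the mean share of each JAZ gene in the summed level of a group, in percent of CPM per kb of exon, with ozone left of control for each genotype. JAZ1 takes the largest part under ozone, 39.7% in Col-0, and JAZ9 the largest part in control, 55.5% in Col-0.

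Ozone raised 6 of the 10 JAZ genes in Col-0 and lowered none (quasi-likelihood F-test of edgeR, adjusted p under 0.05 by Benjamini and Hochberg). Among all 19954 genes tested, 33.3% were called higher and 69.7% in either direction, so a call under ozone is common in these data. The median log2 fold change of the 10 genes was 2.26, against −0.08 over all genes tested. The 6 that rose were JAZ1, JAZ2, JAZ5, JAZ6, JAZ8 and JAZ10, by between 2.34-fold and 32.5-fold.

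JAZ1 (AT1G19180), among the first repressors shown to be degraded through COI1, stood at 326, 435, 395 and 389.6 CPM in the Col-0 ozone libraries and at 8.13, 17.5, 11.01 and 10.97 CPM in the Col-0 control libraries. Every ozone library was far above every control library, with a log2 fold change of 5.02 with an SE of 0.50 (adjusted p = 8.16e-08). Values after ± are SE wherever log2 values are given. JAZ8 (AT1G30135), which lacks the usual degron and binds TPL directly through an EAR motif, had 4.55, 9.18, 10.3 and 9.40 CPM in Col-0 ozone libraries and 0.401, 0.334, 0.343 and 0.0455 CPM in Col-0 control libraries. It was close to undetected in control and present in every ozone library, at 4.89 ± 0.48 on the log2 scale (adjusted p = 6.19e-08). JAZ7 and JAZ8 passed the filter on low counts only through the ozone groups, where they were high. With no filter JAZ8 was also called, at 4.91 (adjusted p = 1.66e-08). Without JAZ7 and JAZ8, 5 of the other 8 genes were called higher in Col-0, with a median log2 fold change of 1.80.

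JAZ5 (AT1G17380) and JAZ6 (AT1G72450) form a closely related pair. JAZ5 had 43.0, 63.2, 69.3 and 44.0 CPM in Col-0 ozone libraries, against 2.31, 4.68, 2.50 and 3.32 CPM in Col-0 control libraries, a log2 fold change of 4.09 ± 0.33 (adjusted p = 5.62e-09). JAZ6, known for the clock-dependent susceptibility to the fungus Botrytis cinerea, had 206, 295, 281 and 269 CPM in Col-0 ozone libraries and 41.7, 55.1, 43.6 and 63.3 CPM in Col-0 control libraries, 2.37 ± 0.20 on the log2 scale (adjusted p = 1.15e-08). JAZ6 started from the higher level of the pair in control and JAZ5 had the larger fold change. The groups did not overlap for either gene.

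JAZ10 (AT5G13220), whose splice forms differ in their resistance to degradation and were counted here as 1 gene, had 22.6, 44.1, 39.0 and 22.9 CPM in Col-0 ozone libraries and 3.56, 3.10, 1.96 and 2.28 CPM in Col-0 control libraries. Its log2 fold change was 3.56 ± 0.30 (adjusted p = 7.65e-09), and its ozone libraries 2 and 3 stood above libraries 1 and 4. JAZ2 (AT1G74950), known from stomatal guard cells, changed least among the genes that rose, with 37.9, 59.3, 58.0 and 52.2 CPM in Col-0 ozone libraries and 19.5, 24.4, 20.6 and 24.0 CPM in Col-0 control libraries (log2 fold change 1.23 ± 0.22, adjusted p = 9.11e-05). The ozone libraries of JAZ2 also lay above all its control libraries. Libraries without overlap, with ozone above control, were found for 7 of the 10 genes in Col-0, against 29.3% of all genes tested. Of these, JAZ7 and JAZ8 were admitted by their ozone libraries, and the others were JAZ1, JAZ2, JAZ5, JAZ6 and JAZ10.

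**Figure D2:**
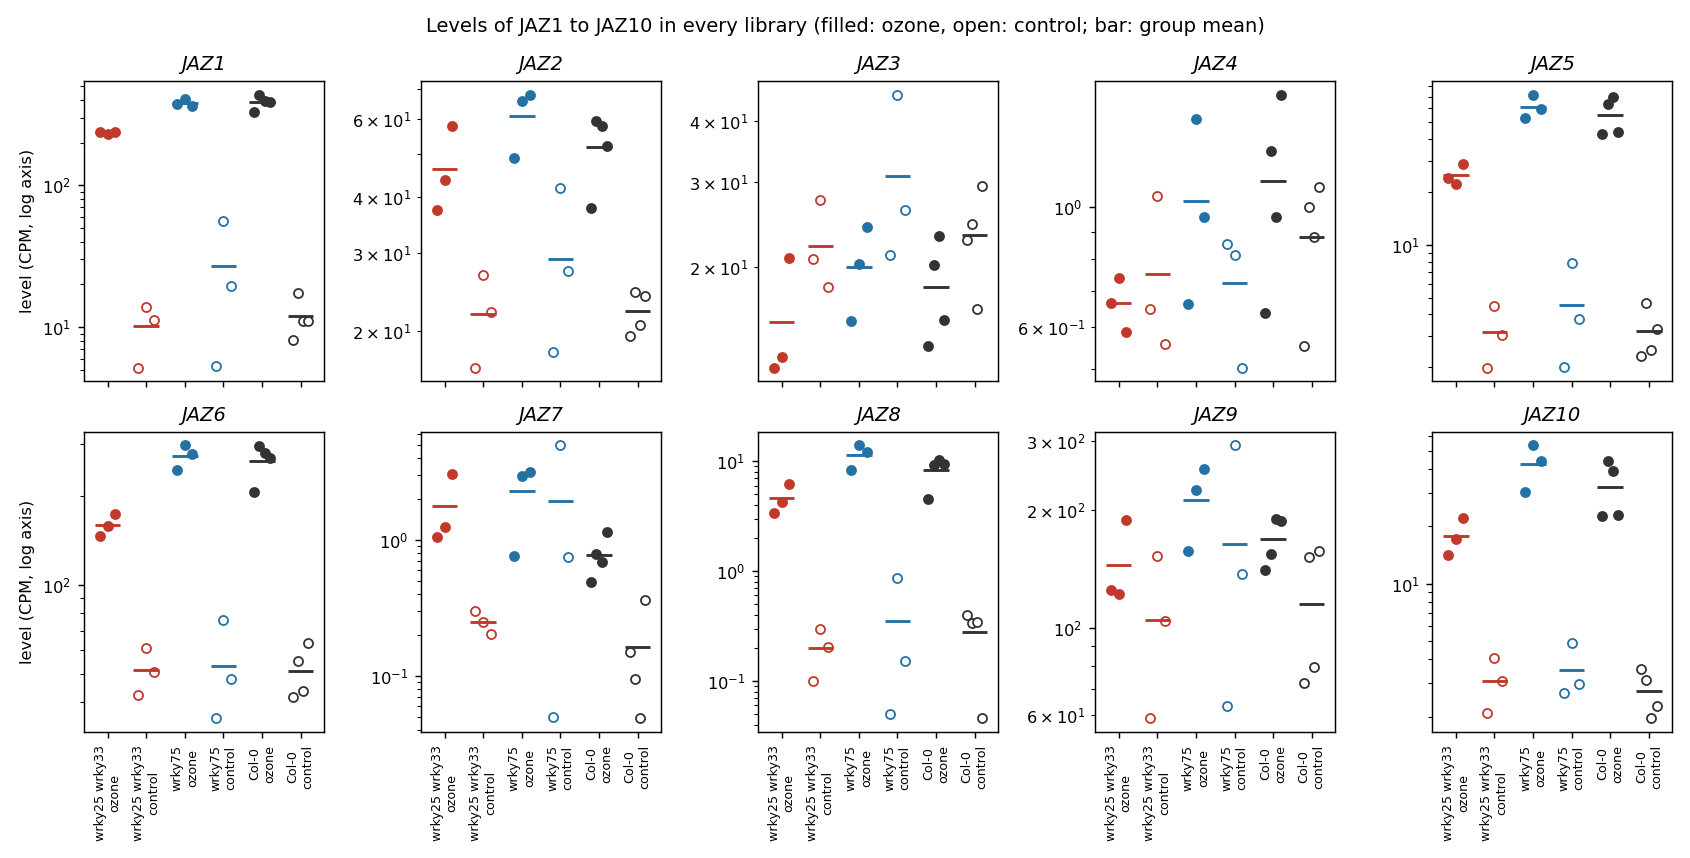
Each panel shows 1 JAZ gene, with its level in CPM on a log axis for every library (points) and the group mean (line), ozone left of control for each genotype. JAZ1, JAZ2, JAZ5, JAZ6, JAZ8 and JAZ10 have their Col-0 ozone libraries above all Col-0 control libraries, whereas the libraries of JAZ3, JAZ4 and JAZ9 overlap.

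The other 4 genes did not pass the test in Col-0. JAZ3 (AT3G17860), with 2 G-boxes in the window shown above, had 13.7, 20.3, 23.2 and 15.6 CPM in Col-0 ozone libraries and 22.7, 24.6, 16.4 and 29.4 CPM in Col-0 control libraries (log2 fold change −0.36 ± 0.25, adjusted p = 0.215). JAZ9 (AT1G70700), whose Jas domain is used in a reporter of jasmonate perception, had 141, 155, 190.2 and 188 CPM in Col-0 ozone libraries and 72.4, 151, 79.6 and 157 CPM in Col-0 control libraries (0.55 ± 0.38, adjusted p = 0.205). Its control libraries fell into 2 high and 2 low values, and the high ones reached into the ozone range. JAZ4 (AT1G48500) was low, with 91 counts in all over the Col-0 ozone libraries and 74 over the Col-0 control libraries. It had 0.636, 1.27, 0.960 and 1.62 CPM in Col-0 ozone libraries and 0.552, 1.00, 0.881 and 1.09 CPM in Col-0 control libraries (0.33 ± 0.31, adjusted p = 0.346).

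JAZ7 (AT2G34600), like JAZ8 a short repressor with an EAR motif, had 10, 16, 15 and 22 counts in Col-0 ozone libraries and 3, 2, 1 and 8 counts in Col-0 control libraries. The groups did not overlap, at 2.16 ± 1.01 on the log2 scale (adjusted p = 0.0645). With the replicate number as a block, since same-numbered Col-0 libraries deviated together, JAZ7 was at 2.22 ± 0.93 (adjusted p = 0.0406, and 0.013 to 0.138 over its alternatives), and the count of genes called higher was then 7 of the 10, against 35.2% of all genes. As JAZ7 was admitted by its ozone libraries, this added call is given as a value only. DESeq2 also called JAZ7, at 2.28 (adjusted p = 0.013), and so 7 of the 10 genes. Over all genes DESeq2 called 13789 of 22842, and 52.1% of these calls were higher. Depth limits what can be said of JAZ7 and, less so, of JAZ4.

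In the mutants the same 6 genes rose under ozone. They rose in all 3 genotypes, and JAZ3, JAZ4 and JAZ9 were called in none. In wrky25 wrky33, 7 of the 10 were called higher, against 31.1% of all genes tested, with a median log2 fold change of 2.08 for the 10 and −0.09 for all genes. In wrky75, 6 of the 10 were called higher, against 32% of all genes tested, with medians of 1.72 and −0.11. The 7 in wrky25 wrky33 include JAZ7, whose call is given as a value only. Without JAZ7 and JAZ8, 5 of the other 8 genes were called higher in wrky25 wrky33 and 5 of 8 in wrky75. The median log2 fold change of these 8 genes was 1.36 in wrky25 wrky33 and 1.72 in wrky75. Libraries without overlap, ozone above control, were seen for 7 of the 10 in wrky25 wrky33 and 6 in wrky75, against 33.9% and 33.4% of all genes. JAZ1, JAZ2, JAZ5, JAZ6 and JAZ10 were among them in both mutants. The others were JAZ8 in both and JAZ7 in wrky25 wrky33, which were admitted by their ozone libraries. Both comparisons have their own control libraries, but all 20 libraries entered 1 fit, and same-numbered mutant and Col-0 libraries deviated together (correlations of 0.133 to 0.746), so the 3 genotypes are not independent of each other.

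JAZ1 had 239, 232 and 238 CPM in wrky25 wrky33 ozone libraries and 5.17, 13.9 and 11.2 CPM in wrky25 wrky33 control libraries, 4.55 ± 0.57 on the log2 scale (adjusted p = 2e-06). In wrky75 JAZ1 had 372, 408 and 361 CPM in ozone libraries and 5.28, 55.9 and 19.6 CPM in control libraries, 3.82 ± 0.55 (adjusted p = 7.25e-06). The 3 wrky75 control libraries of JAZ1 were spread over a range of more than their own mean of 26.9 CPM. JAZ8 reached 3.41, 4.29 and 6.26 CPM in wrky25 wrky33 ozone libraries and 0.0993, 0.300 and 0.203 CPM in wrky25 wrky33 control libraries (4.50 ± 0.61, adjusted p = 4.27e-06). In wrky75 JAZ8 reached 8.37, 13.96 and 12.2 CPM in ozone libraries and 0.0503, 0.862 and 0.151 CPM in control libraries (4.97 ± 0.53, adjusted p = 2.2e-07). JAZ8 was the gene with the largest log2 fold change of the 10 in wrky75. In wrky25 wrky33 JAZ1 and JAZ8 differed by less than their SE, and their order turned without control replicate 2 (4.85 for JAZ1 and 4.90 for JAZ8).

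JAZ5 rose by 2.97 ± 0.38 on the log2 scale in wrky25 wrky33 and 3.75 ± 0.38 in wrky75 (adjusted p = 2.28e-06 and 9.85e-08). JAZ6 rose by 1.63 ± 0.23 in wrky25 wrky33 and 2.36 ± 0.24 in wrky75, and JAZ10 by 2.54 ± 0.34 in wrky25 wrky33 and 3.60 ± 0.34 in wrky75. JAZ2 rose by 1.09 ± 0.26 in wrky25 wrky33 and 1.07 ± 0.26 in wrky75 (adjusted p = 0.00121 and 0.00124). For these 4 genes the ozone libraries lay above the control libraries of the same mutant.

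JAZ7 passed in wrky25 wrky33, with 22, 27 and 67 counts in ozone libraries and 6, 5 and 4 counts in control libraries (log2 fold change 2.80 ± 0.99, adjusted p = 0.0194). With no filter on low counts it stood at 2.84 (adjusted p = 0.0181). The call was lost without wrky25 wrky33 ozone replicate 3 (2.17, adjusted p = 0.0983) or control replicate 3 (2.67, adjusted p = 0.0572). In wrky75 JAZ7 had 15, 60 and 69 counts in ozone libraries and 1, 103 and 15 counts in control libraries, and did not pass (0.25 ± 0.74, adjusted p = 0.78). Its highest wrky75 library was thus a control library. JAZ3 was lower without passing in both mutants, at −0.52 ± 0.29 in wrky25 wrky33 (adjusted p = 0.125) and −0.63 ± 0.29 in wrky75 (adjusted p = 0.0613). JAZ3 was called lower with upper-quartile scaling in wrky25 wrky33 (−0.70, adjusted p = 0.0414) and wrky75 (−0.81, adjusted p = 0.0185). That scaling moved the median of all genes to −0.27 in wrky25 wrky33, −0.29 in wrky75 and −0.28 in Col-0, and the share of calls that were higher to 37.6%, 38% and 37.2%, against 47.8%, 47% and 47.7%. Leaving out wrky25 wrky33 ozone replicate 3 also gave the call in that mutant (−0.80, adjusted p = 0.039), and leaving out wrky75 control replicate 1 or wrky75 ozone replicate 3 gave it in wrky75 (−0.84 and −0.79, adjusted p = 0.0204 and 0.0464).

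JAZ9 and JAZ4 stayed within the spread of their libraries. JAZ9 had 125, 122 and 189 CPM in wrky25 wrky33 ozone libraries and 58.9, 152 and 104 CPM in wrky25 wrky33 control libraries (log2 fold change 0.46 ± 0.43, adjusted p = 0.36). In wrky75 it had 157, 225 and 254 CPM in ozone libraries and 63.1, 292 and 137 CPM in control libraries (0.37 ± 0.43, adjusted p = 0.462). JAZ4 stood between 0.503 and 1.46 CPM in all mutant libraries, at −0.18 ± 0.39 in wrky25 wrky33 and 0.50 ± 0.37 in wrky75 (adjusted p = 0.697 and 0.238).

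**Figure D3:**
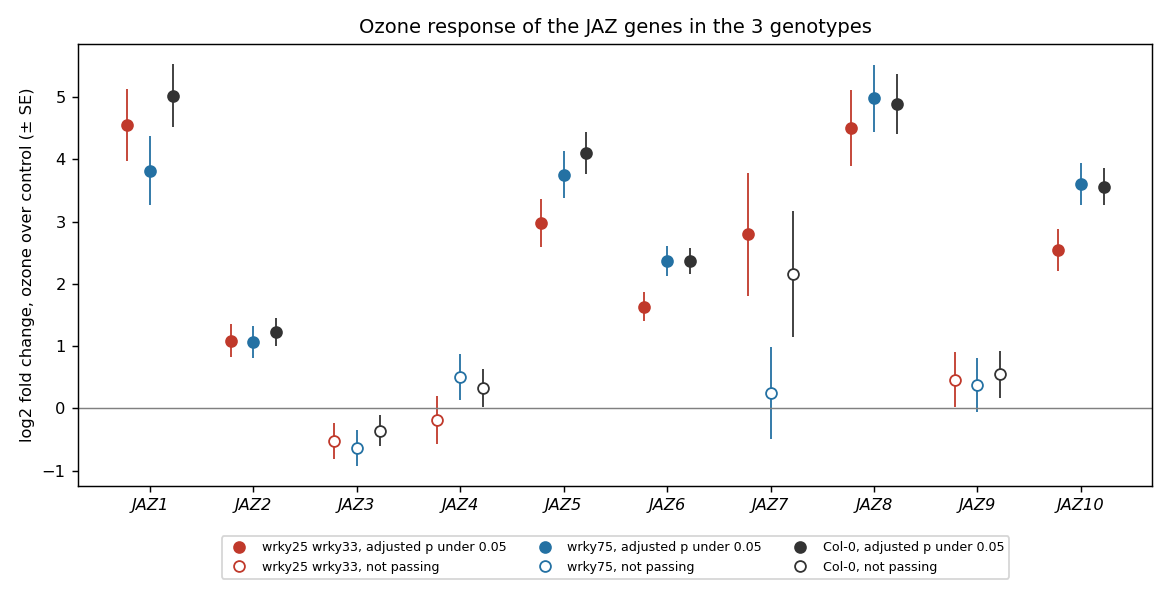
Points give the log2 fold change of each JAZ gene, ozone over control, in wrky25 wrky33, wrky75 and Col-0, with bars of 1 SE, and the line marks no change. JAZ1, JAZ5, JAZ8 and JAZ10 lie above 2 in all 3 genotypes, and JAZ3 lies below 0 in all 3 without a call.

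Under ozone, JAZ transcripts were lower in wrky25 wrky33 than in Col-0 for 9 of the 10 genes by their log2 difference, and 1 of them, JAZ5, passed. Over all genes tested 3.77% were called lower and 5.33% in either direction. JAZ2, JAZ3 and JAZ9, at −0.16 ± 0.24, −0.24 ± 0.27 and −0.21 ± 0.41, differed by less than their SE. An unadjusted p under 0.05 in edgeR was held by 5 of the 10 (JAZ4, JAZ5, JAZ6, JAZ8 and JAZ10), against 3069 of the 19954 genes tested. The median log2 difference of the 10 was −0.72, against −0.00 over all genes. JAZ5 had 23.9, 22.2 and 28.9 CPM in wrky25 wrky33 ozone libraries and 43.0, 63.2, 69.3 and 44.0 CPM in the Col-0 ozone libraries. All 3 mutant libraries were below all 4 Col-0 libraries, at −1.14 ± 0.31 on the log2 scale (adjusted p = 0.0403, and 0.00354 to 0.172 over its alternatives). The difference stayed near its size when 1 library was left out, but the call did not always hold. Without any 1 of wrky25 wrky33 ozone replicates 1, 2 and 3 or of Col-0 ozone replicates 2 and 3, JAZ5 no longer passed, with log2 differences of −1.252 to −1.003 and adjusted p of 0.095 to 0.172.

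JAZ1, JAZ6 and JAZ10 showed the same order of libraries without passing. JAZ6 had 146, 158 and 173 CPM in wrky25 wrky33 ozone libraries and 206, 295, 281 and 269 CPM in the Col-0 ozone libraries (log2 difference −0.72 ± 0.21, adjusted p = 0.0581). JAZ10 had 14.1, 17.2 and 22.2 CPM in wrky25 wrky33 ozone libraries and 22.6, 44.1, 39.0 and 22.9 CPM in the Col-0 ozone libraries (−0.85 ± 0.28, adjusted p = 0.0994). JAZ1, at 232 to 239 CPM in wrky25 wrky33 ozone libraries and 326 to 435 CPM in Col-0 ozone libraries, differed by −0.71 ± 0.46 (adjusted p = 0.548). With JAZ5 these made 4 of the 10 genes whose mutant libraries all lay below those of Col-0, against 7.34% of all genes tested. JAZ8 was at −0.84 ± 0.37 with overlapping libraries (adjusted p = 0.27), and JAZ7 was the exception to the direction, at 1.19 ± 0.76 (adjusted p = 0.533).

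Libraries with the same number deviated together in this comparison, with correlations of 0.375 to 0.669 between the deviations of wrky25 wrky33 and Col-0 ozone libraries from their group means. With the number as a block, 3 of the 10 genes passed and were lower, against 6.57% of all genes called lower. JAZ5 stood at −1.14 ± 0.23 (adjusted p = 0.00354), JAZ10 at −0.93 ± 0.19 (adjusted p = 0.00445, and up to 0.317 over its alternatives) and JAZ6 at −0.64 ± 0.14 (adjusted p = 0.00694, and up to 0.193). Within the 3 same-numbered pairs, wrky25 wrky33 had 0.351 to 0.556 times the Col-0 level of JAZ5, 0.390 to 0.624 times that of JAZ10, 0.536 to 0.712 times that of JAZ6, 0.532 to 0.732 times that of JAZ1 and 0.468 to 0.750 times that of JAZ8. JAZ7 stood at 1.596 to 4.401 times the Col-0 level in these pairs. JAZ2, JAZ3 and JAZ9 were at 0.645 to 1.00 times the Col-0 level, and JAZ4 at 0.582 to 1.04 times.

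**Figure D4:**
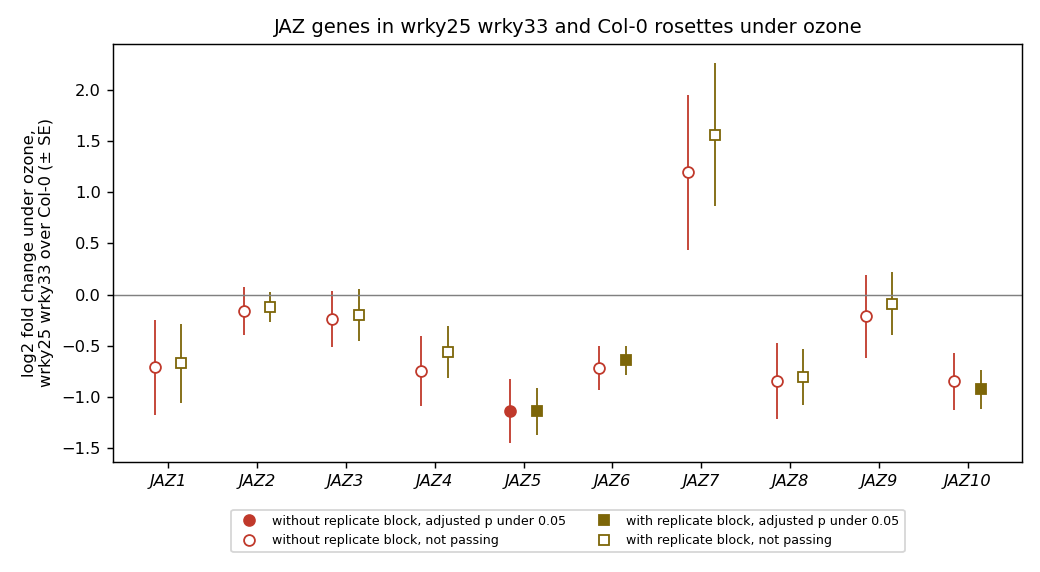
Points give the log2 difference of each JAZ gene between wrky25 wrky33 and Col-0 ozone libraries, with bars of 1 SE, from the fit without and with the replicate number as a block. All genes but JAZ7 lie below 0, and JAZ5 is lowest at −1.14.

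Whether the ozone response itself differed between wrky25 wrky33 and Col-0 was tested as an interaction, and 0 of the 10 genes passed, against 0.957% of all genes tested. DESeq2 also called 0. In edgeR an unadjusted p under 0.05 was held by 1810 of the 19954 genes tested and by 3 of the 10. These were JAZ5 (log2 difference of responses −1.12 ± 0.49, adjusted p = 0.479), JAZ6 (−0.73 ± 0.30, adjusted p = 0.42) and JAZ10 (−1.03 ± 0.44, adjusted p = 0.47). JAZ1 stood at −0.47 ± 0.67 (adjusted p = 0.97). A smaller ozone response of these genes in the double mutant was therefore not shown.

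Between wrky75 and Col-0 under ozone 0 of the 10 genes passed in edgeR and 0 in DESeq2, against 0.0251% of all genes tested. An unadjusted p under 0.05 in edgeR was held by 0 of the 10, against 333 of the 19954 genes tested. The log2 differences ran from −0.12 for JAZ4 to 1.56 for JAZ7, with a median of 0.20 for the 10 and −0.02 for all genes, and the libraries overlapped for every gene. Within the 3 same-numbered pairs, JAZ1, JAZ4, JAZ5 and JAZ6 lay on both sides of the Col-0 level. The others lay above it in every pair, and the share of all genes that did so was not computed. JAZ7 stood at 1.56 to 4.597 times that level, JAZ8 at 1.18 to 1.84, JAZ9 at 1.12 to 1.45, JAZ10 at 1.14 to 1.34, JAZ2 at 1.11 to 1.30 and JAZ3 at 1.00 to 1.13 times. With the number as a block 0 of the 10 genes passed. JAZ5 had 52.9, 71.8 and 59.8 CPM in wrky75 ozone libraries, within the 43.0 to 69.3 CPM of Col-0 ozone libraries but for 1 library. JAZ6 in wrky75, at 245, 297 and 277 CPM, and JAZ10, at 30.3, 53.3 and 44.3 CPM, also reached into the Col-0 ranges of 206 to 295 and 22.6 to 44.1 CPM. The difference in ozone response between wrky75 and Col-0 passed for 0 of the 10 genes in edgeR and in DESeq2, against 0% of all genes tested. For this difference 0 of the 10 had an unadjusted p under 0.05 in edgeR, against 349 of the 19954 genes. JAZ1 stood at −1.20 ± 0.66 there (adjusted p = 1), and at −0.0883 without wrky75 control replicate 2.

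Without ozone, 0 of the 10 genes passed between wrky25 wrky33 and Col-0, in edgeR and in DESeq2, against 0.0251% of all genes. In edgeR 0 of the 10 had an unadjusted p under 0.05, against 683 of the 19954 genes tested. The log2 differences ran from −0.46 for JAZ8 to 0.56 for JAZ7, and the libraries overlapped for all 10. Between wrky75 and Col-0 control libraries 0 of the 10 passed as well, in edgeR and in DESeq2, against 0.0251% of all genes. An unadjusted p under 0.05 in edgeR was held by 931 of the 19954 genes tested and by 2 of the 10. These were JAZ7 (3.48 ± 0.95, adjusted p = 0.581) and JAZ1 (1.18 ± 0.47, adjusted p = 0.927). Among the alternatives run JAZ7 passed only without wrky75 control replicate 1 (4.04, adjusted p = 0.0321), the library with 1 count. Without wrky75 control replicate 2, the library with 103 counts, JAZ7 stood at 1.23 (adjusted p = 0.969) and JAZ1 at 0.0651 (adjusted p = 0.994).

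The wrky75 control libraries were unlike each other. Leaving out library 2 changed several values of the comparisons that used the controls of this mutant. JAZ1, JAZ2, JAZ5, JAZ6, JAZ8 and JAZ10 passed under ozone in wrky75 with or without it. Summed JAZ levels of wrky75 control libraries 1, 2 and 3 were 95.0, 363 and 178 CPM per kb. Number 1 was also lowest and number 2 also high in wrky25 wrky33 control (94.5, 194 and 142) and Col-0 control (110, 189, 116 and 194). Library 2 of wrky75 was the highest of all 10 control libraries for 9 of the 10 JAZ genes, against 12.1% of all genes tested, and JAZ4 was the exception. It was also the highest for 9 of 9 genes of jasmonate catabolism, 8 of 13 of synthesis and 8 of 10 jasmonate output genes, but for 0 of 12 genes of the receptor and repression complex and 0 of 4 leaf markers. In this library JAZ1 reached 55.9 CPM, JAZ5 7.85 CPM, JAZ8 0.862 CPM, JAZ9 292 CPM and JAZ7 103 counts. Without it the ozone response of wrky75 was 4.93 for JAZ1, 4.41 for JAZ5 and 6.76 for JAZ8 on the log2 scale, and JAZ7 (2.49 ± 0.74, adjusted p = 0.00722) and JAZ9 (1.08, adjusted p = 0.0307) passed. Among ozone libraries, replicate 1 was the lowest of its group for 6 of the 10 JAZ genes in wrky25 wrky33, 9 in wrky75 and 10 in Col-0, against 40.9%, 38.6% and 32.6% of all genes. What set these libraries apart was not tested.

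The other genes of the pathway were followed in 6 lists with 64 genes. Of the remaining JAZ genes and other TIFY genes, 1 of 6 rose and 3 fell under ozone in Col-0, with a median log2 fold change of −0.32. JAZ12 rose by 0.39 ± 0.15, TIFY8 fell by 1.83 ± 0.15, and the growth repressors PPD1 and PPD2 (PEAPOD), which limit leaf meristemoid divisions, fell by 0.97 ± 0.21 and 0.34 ± 0.14. In the receptor and repression complex 6 of 12 rose and 2 fell, with a median of 0.23. The mediator subunit MED25 rose by 0.88 ± 0.09, the co-repressor TPL by 0.78 ± 0.10, and ASK1 and CUL1 of the receptor's ubiquitin ligase by 0.52 ± 0.09 each. The receptor gene COI1 itself was at 0.26 ± 0.13 (adjusted p = 0.0869).

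Of the bHLH and MYB factors that JAZ proteins bind, 8 of 10 were tested, 4 rose and 3 fell, with a median of 0.61. The activators MYC5 and MYC4 fell by 3.37 ± 0.50 and 2.01 ± 0.16, and bHLH14, a repressor of jasmonate responses, fell by 1.88 ± 0.45. The related MYC3 went the other way, with 83.8 to 123 CPM in Col-0 ozone and 48.0 to 73.2 CPM in Col-0 control libraries. JAM1, another repressor of the response, rose by 1.42 ± 0.14, and MYC2 was at 0.64 ± 0.31 (adjusted p = 0.0793). In jasmonate synthesis 8 of 13 tested genes (of 15) rose and 2 fell, with a median of 1.65. AOC3, an allene oxide cyclase, rose by 6.12 ± 0.39, the lipoxygenase LOX4 by 4.67 ± 0.33, the peroxisomal oxidase ACX1 by 3.74 ± 0.22 and the reductase OPR3 by 2.78 ± 0.30. LOX3, the lipoxygenase gene near JAZ5, rose by 1.65 ± 0.20, and LOX4 is the one near JAZ6.

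In jasmonate catabolism 7 of 9 tested genes (of 10) rose and none fell, with a median of 2.70. IAR3, an amidohydrolase that cleaves the isoleucine conjugate, rose by 4.29 ± 0.30, JOX2, which hydroxylates jasmonic acid, by 4.06 ± 0.62, the oxidase CYP94C1 by 3.75 ± 0.53 and the amidohydrolase ILL6 by 2.86 ± 0.36. Of the output genes 7 of 10 tested (of 11) rose and none fell, with a median of 2.56. The ethylene response factors ORA59 and ERF1 rose by 6.49 ± 0.37 and 5.37 ± 0.20, the factor NAC055 by 4.76 ± 0.75 and the aminotransferase TAT3 by 4.41 ± 0.82. VSP2 and VSP1, marker genes of the MYC2 branch, were at −1.17 ± 0.76 and −0.17 ± 0.68 and did not pass (adjusted p = 0.177 and 0.839). All these counts stand against 33.3% of genes called higher and 36.4% called lower in Col-0.

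Between wrky25 wrky33 and Col-0 under ozone 5 of the 58 tested genes of these lists passed, 8.62%, against 5.33% of all genes tested, and they are named here after their values were seen. ORA59 was at −1.24 ± 0.28, IAR3 at −1.24 ± 0.29, ACX1 at −0.92 ± 0.21, ERF1 at −0.62 ± 0.15 and JAR1, which makes the isoleucine conjugate, at 0.50 ± 0.11 (adjusted p = 0.0121, 0.0145, 0.0143, 0.0156 and 0.0128). JAR1 stood at 44.8 to 48.7 CPM in Col-0 ozone libraries, below the 61.0 to 69.6 CPM of Col-0 control libraries. In wrky25 wrky33 it stood at 57.8 to 72.1 CPM in ozone and 57.4 to 68.6 CPM in control libraries. MYC2 at 0.02 ± 0.34 and COI1 at 0.08 ± 0.14 did not pass (adjusted p = 0.997 and 0.915). In the difference of the ozone responses 0 of these 58 genes were called for wrky25 wrky33 against Col-0, where 0.957% of all genes were, and 0 for wrky75 against Col-0, where 0% were.

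**Figure D5:**
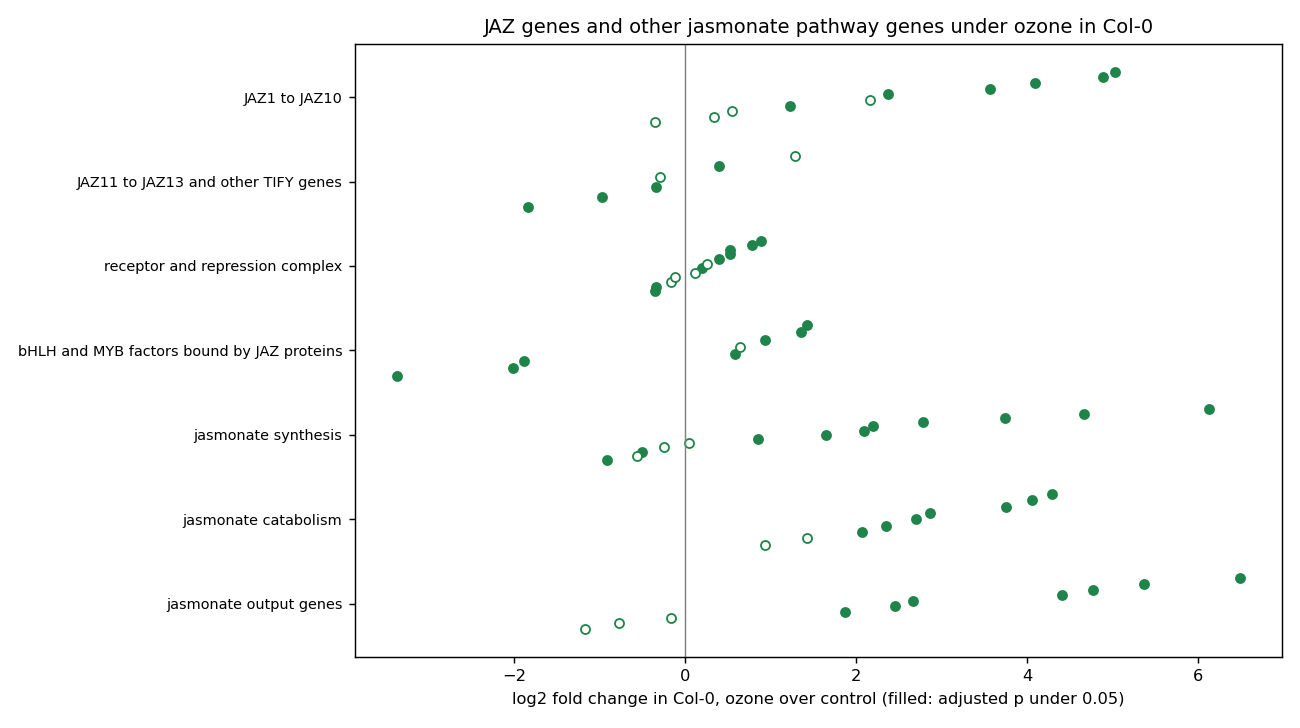
Points give the log2 fold change under ozone in Col-0 of each tested gene in the 10 JAZ genes and the 6 pathway lists, 1 row for each list, filled where the adjusted p was under 0.05. The genes of jasmonate catabolism all lie to the right of 0, with a median of 2.70, and those of the receptor and repression complex lie on both sides of 0, from −0.35 for HDA19 to 0.88 for MED25, with a median of 0.23.

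For each JAZ gene the gene outside the 10 with the most alike pattern was found over the 20 libraries, as the smallest root mean square difference in log2(CPM + 0.5) after centring each gene on its own mean. The libraries share treatment, genotype and scaling, and this is a description with no test. JAZ5 was closest to IAR3 (0.272) and JAZ8 to ACX1 (0.292), both of the pathway lists. JAZ9 was closest to MYC2 (0.187), which had 41.1, 76.5, 47.7 and 87.9 CPM in Col-0 control libraries, high in the same libraries 2 and 4 as JAZ9. JAZ1 was closest to the ethylene response factor ERF2 (0.355) and JAZ7, with the poorest match, to RAV1 (0.467). The nearest genes of JAZ2, JAZ3, JAZ4, JAZ6 and JAZ10 were ABC1 (AT4G01660), MEE31, AT2G38740, AT5G23850 and AT4G24340, at 0.205, 0.246, 0.180, 0.171 and 0.219. Among the 10 themselves JAZ8 and JAZ10 were nearest to each other (0.319), JAZ5 was nearest to JAZ8 (0.351), and JAZ1 stood farther from its nearest, JAZ5 (0.680).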

How the data were processed

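RNA was measured in 20 libraries grouped by the genotype and treatment in the labels, which give the pools as biological replicates. Nothing says that pools came from separate sowings, so p-values measure only the spread between these pools. The authors deposited whole-number read counts per gene. The submitters' processing notes name TAIR10 and the tools TopHat2, HTSeq, FastQC and SAMtools, without versions, and settings for strand and for reads with several positions were not given in the sources used here. The TruSeq v2 kit does not mark strand, and close relatives (JAZ1 with JAZ2, JAZ5 with JAZ6, JAZ7 with JAZ8) could share reads.

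Counts were analysed in R 4.3.3 with edgeR 4.0.16 and limma 3.58.1. After filterByExpr 19954 genes remained, scaled by TMM. All 20 libraries entered 1 fit of 6 group means, tested by quasi-likelihood F-tests with Benjamini-Hochberg adjustment over all genes tested at 0.05, and SE was the absolute log2 fold change over the square root of F. The biological coefficient of variation was 17.2%. DESeq2 1.42.0, 2 other scalings, no filter, fits on the compared groups, a replicate block and fits without each library were alternatives, and the fits were tested on simulated data. Same-numbered libraries deviated together in 18 of 22 pairs (correlation over 0.1), and in every pair of the mutant against Col-0 comparisons and of ozone against control in Col-0. For these, block values are printed where a call or a count of calls changed. No libraries of a group agreed within sampling noise (chi-square per gene 6.47 to 69.0). Levels per kb used RefSeq TAIR10.1 exons within the deposited gene bounds. The 10 genes, the lists and the tests were chosen with earlier results of these data known. From each list up to 4 called genes with the largest change in Col-0 were named, and further genes after their values were seen. The window before the start of JAZ1 is not reported here.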

Additional observations from a re-analysis of the deposited data

How the results depend on the processing

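The calls of JAZ1, JAZ2, JAZ5, JAZ6, JAZ8 and JAZ10 under ozone kept their direction and passed in each of the 3 genotypes under every alternative run. The counts of JAZ genes called between wrky25 wrky33 and Col-0 under ozone were 2 with DESeq2, 3 with only the groups compared in the fit and 3 with the replicate block, against 1, and 0 to 2 without 1 library. Over all genes, calls in either direction were 1296 of 21305 with DESeq2, 707 of 19314 with the compared groups and 2394 of 19954 with the block. They were 1064 of 19954 in the main fit and 583 to 1171 without 1 library. JAZ1 passed only with the compared groups alone (adjusted p = 0.02), and JAZ6 also without Col-0 ozone replicate 1 (adjusted p = 0.0327). Between wrky75 and Col-0 in control the count was 0 to 1 without 1 library, where 3 to 64 of all genes were called. Among the results given with their alternatives, directions turned for 3 uncalled ones when 1 library was left out, with log2 fold changes of −0.35 to 0.14 for JAZ4 in wrky25 wrky33, −0.32 to 2.49 for JAZ7 in wrky75 and −0.0177 to 1.08 for JAZ9 in wrky75. Among 43 further uncalled results, 85 of 704 values turned direction and 0 passed. The cause was not tested. Same-numbered pools did not all deviate together in ozone against control within wrky25 wrky33 and wrky75. There the replicate block gave 7 calls in each mutant, with JAZ3 lower in wrky75 (−0.60, adjusted p = 0.0455). Over all 19954 genes the block called 14229 in wrky25 wrky33 and 14771 in wrky75, in either direction. In the other pairings the block changed no call beyond those given above. Depth limits JAZ7 and the control levels of JAZ8, where a library held as few as 1 count, and less so JAZ4.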
